A study of Saccharomyces cerevisiae with 12 samples.

Results

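The transcriptional response of budding yeast to KCl was compared between cells with and without calcineurin, in a background that lacks the transcription factor Crz1. The quantity of interest was the difference between the KCl responses, that is, KCl minus 0 h in crz1 less KCl minus 0 h in crz1cnb1. All 12 of the 12 libraries of the series entered it, as 4 groups of 3 replicates. A positive difference means that the log2 response was higher in crz1, the strain that has calcineurin, and it is called the interaction below.

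Both strains were haploid MATa cells of the BY4741 background with the alleles his3delta1, ura3delta0, leu2delta0 and lys2delta0. Both also carried crz1delta::LEU2 and a HYG-TEFp-GFP(Y66F) cassette on chromosome VI, so no group had Crz1. The strain called crz1cnb1 additionally carried cnb1delta::KanMx, which removes the regulatory subunit of calcineurin. Cells grew in synthetic medium with ammonium chloride as the nitrogen source. One group of each strain was taken untreated at 0 h and the other after 48 h in 400 mM KCl, with a dilution every 12 h that kept the cultures in logarithmic growth. The series describes triplicate experiments and does not say whether replicates were separate clones or cultures, so p-values measure the spread between these samples. An untreated group at 48 h was not analysed here, and the effect of KCl cannot be told apart from that of 48 h of further culture.

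Calcineurin is a protein phosphatase made of a catalytic subunit, encoded by CNA1 or CMP2, and the regulatory subunit Cnb1, and it is switched on by calcium and calmodulin. Its best known route to transcription is dephosphorylation of Crz1, which then enters the nucleus and activates genes for ion pumps and cell wall enzymes. Calcineurin also dephosphorylates proteins outside that route, among them the cell cycle transcription factor Hcm1 and the TORC2 substrates Slm1 and Slm2. With CRZ1 deleted in every group, the comparison asks what calcineurin does to transcript levels in salt by routes that do not need Crz1.

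The libraries held 21305485 to 21599279 counts each. The crz1 libraries held 1346 to 2889 CNB1 reads before KCl and 2416 to 3139 after it, and the crz1cnb1 libraries 14 to 31 and 31 to 68. CRZ1 had 3 to 19 counts in all 12 libraries. The targeted genes thus matched the labels. The a-cell markers STE2, MFA1, MFA2, STE6 and BAR1 had at least 19391, 5212, 11506, 4802 and 5626 counts in each library. ASG7, also an a-cell marker, had 149 to 387. The alpha-cell genes MF(ALPHA)1 and MF(ALPHA)2 had at most 14 and 16, while SAG1 had 458 to 721 and STE3 16 to 220. The libraries of KCl replicate 2 stood apart in both strains. On the first principal component, which held 33.7% of the variance, they scored -6.55 and -4.53, among the 0 h libraries at -20.4 to -2.84 and away from the other KCl libraries at 19.8 to 24.2. Counts over all features are therefore also given without that replicate number where it moves them by more than 1.5 times. Counts within the gene lists were not recomputed without it.

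No feature had a calcineurin-dependent KCl response that passed the test. In edgeR's quasi-likelihood test with Benjamini-Hochberg adjustment, 0 of 6309 features were called for the interaction (0%), and the smallest adjusted p was 0.723. At an unadjusted p under 0.05 there were 276 features, or 4.38%, a level that 5% of tests without any difference pass by definition. Of these, 180 were higher in crz1 (2.85%) and 96 were lower (1.52%). DESeq2 called 0 features with 162 at an unadjusted p under 0.05, and limma voom called 0 with 285. The median interaction was 0.02 on the log2 scale, and 90% of features lay between -0.39 and 0.28. The test used the replicate number within each treatment as a block, so that each crz1 library was read against the crz1cnb1 library of the same number. Fitted without the block, 0 features were called and 18 had an unadjusted p under 0.05. With the block kept, the 276 features became 123 without KCl replicate 2 and 170 without KCl replicate 3. Without control replicate 3 they became 416, and 0 features were called in each of these fits.

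**Figure D1:**
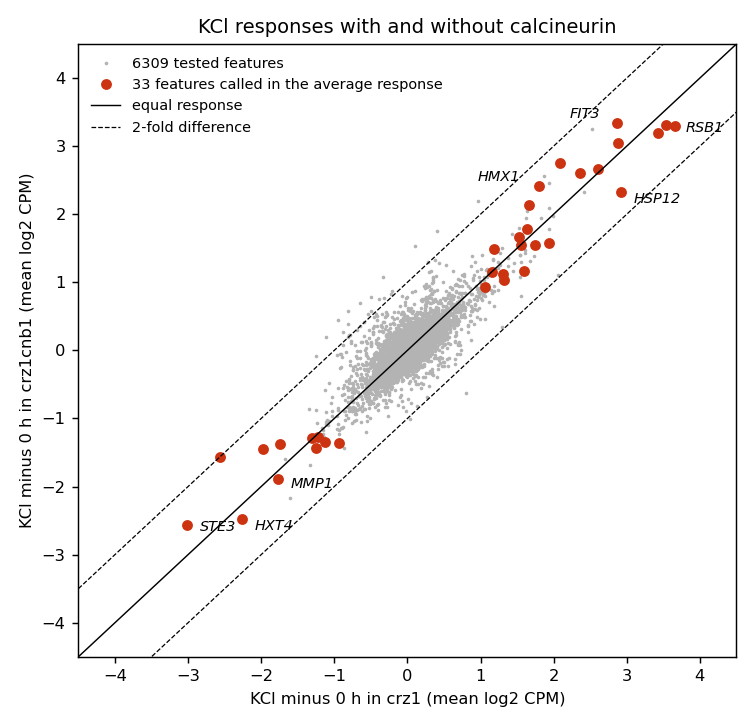
KCl response (mean log2 CPM after 48 h in KCl minus that at 0 h) in crz1, x axis, against that in crz1cnb1, y axis, for 6309 tested features, with 3 libraries per group. Red points are the 33 features called in the response averaged over both strains. They run along the solid line of equal responses, from STE3 at -3.01 and -2.57 to RSB1 at 3.66 and 3.29. Some stand further off it, such as YKL177W at -2.56 and -1.57 and FRE5 at 2.09 and 2.75. Dashed lines mark a 2-fold difference.

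The data put a limit on how large a difference could have been present. For each feature the largest fold difference still inside the 95% interval of the interaction was taken as the excluded size, so that any larger difference lies outside the interval in both directions. Its median over the 6309 features was 1.33-fold, on a median standard error of 0.13 (log2), and its 95th percentile was 2.56-fold. A 2-fold difference was excluded for 5700 features (90.4%), a 1.5-fold difference for 4671 (74%) and a 1.25-fold difference for 1550 (24.6%). A 3-fold difference was excluded for 6100 features and a 4-fold difference for 6225. The intervals are per feature. With 2 one-sided tests adjusted over all features, 5825 stood inside 2-fold.

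How much could be excluded followed the level of the transcript. Of the 365 features with a mean under 1 CPM (counts scaled by library size and TMM factor), 4.93% excluded a 2-fold difference, and the median excluded size was 2.99-fold. From 1 to 10 CPM it was 73.0% of 860 features, from 10 to 100 CPM 99.2% of 3487, and from 100 to 1000 CPM 99.9% of 1410. The 609 features whose interval held a 2-fold difference had a median of 0.845 CPM, against 49.6 CPM for the others, and 151 of them had a standard gene name. For most features under 1 CPM, a calcineurin dependence of 2-fold thus lay within the interval.

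**Figure D2:**
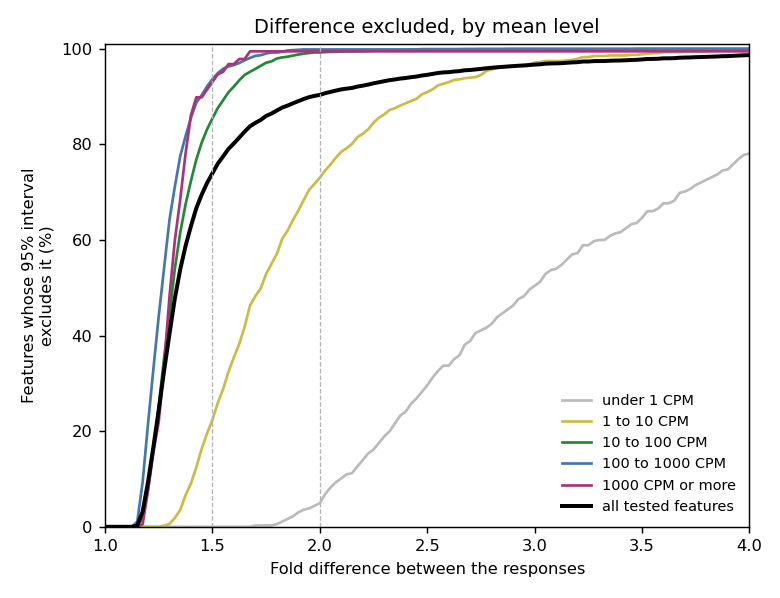
Percentage of tested features (y axis) whose 95% interval of the interaction excludes a given fold difference between the KCl responses (x axis, 1 to 4), by mean CPM and, in black, for all 6309 features. At the dashed line of 2-fold, 90.4% of all features exclude the difference, but only 4.93% of those under 1 CPM.

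The size of these limits rests on the block. Without it, a 2-fold difference was excluded for 4357 features (69.1%) and a 1.5-fold difference for 725 (11.5%). With the replicate number as a block within each strain, across treatments, the counts were 5344 and 2977, and with one block per number over all 4 groups they were 5474 and 3657. Libraries of the same number and treatment deviated together from their group means in all 6 pairs of strains (r = 0.543 to 0.827 across features), which is the pairing that the block removes.

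The features with the clearest KCl response were then read for the strain difference. To choose them without it, the counts of both strains were summed per treatment and replicate number, and 3 sums in KCl were tested against 3 at 0 h. By edgeR with adjustment, 33 of 6412 features were called (0.515%), of which 22 were higher (0.343%) and 11 lower in KCl (0.172%). The call depends on single libraries: 180 features were called without KCl replicate 2 (33 of them shared), 58 without KCl replicate 3, 21 without KCl replicate 1, and 10, 17 and 14 without control replicate 1, 2 and 3. The mean responses of the 2 strains had the same sign for 33 of the 33 features and for 4921 of all 6309, and the choice on the sum of both strains favours this. Their median response was 1.70 in size (log2), while the median interaction was 0.22 in size, with 17 of 33 higher in crz1 (53.5% of all tested features). A difference of 2-fold was excluded for 26 of them and of 1.5-fold for 15, smaller shares than over all features. A difference as large as the average response itself was excluded for 33, taking that response as fixed, and a difference of 50% of it for 24. Without the block the count at 50% was 6 and that at 2-fold was 12.

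**Figure D3:**
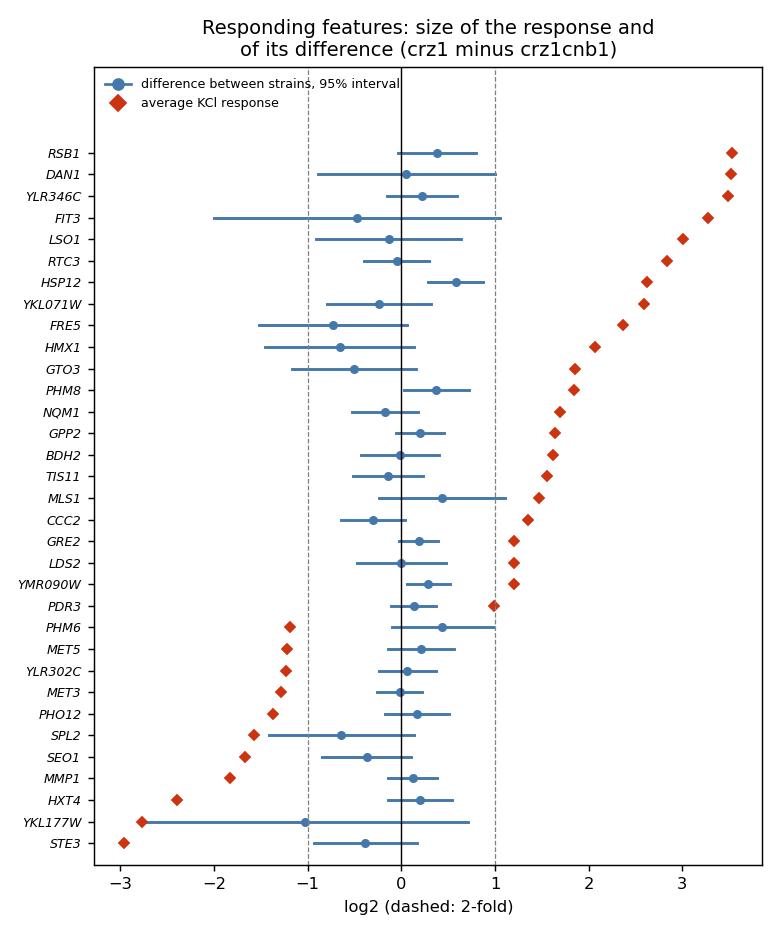
For the 33 features called in the average KCl response, the average response (red diamond) and the interaction with its 95% interval (blue point and line), both in log2 on the x axis and ordered by response. The intervals lie nearer to 0 than the responses do, and those of FIT3 and YKL177W are the widest; dashed lines mark 2-fold.

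RSB1, which encodes a plasma membrane protein of sphingoid base transport, had the largest average rise. It stood at 4.76, 3.92 and 3.99 CPM at 0 h and at 62.7, 37.6 and 67.6 CPM in KCl in crz1. In crz1cnb1 it stood at 6.42, 3.70 and 5.24 CPM and then at 66.8, 35.7 and 51.7 CPM. The groups before and after KCl did not overlap in either strain, and the 2 strains overlapped at each time. The responses were 3.66 and 3.29 (log2), the interaction was 0.38 ± 0.19 (SE; 95% interval -0.04 to 0.80; edgeR adjusted p = 0.849), and a difference above 1.74-fold was excluded. Without the block that limit was 2.40-fold.

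MET3, the ATP sulfurylase of sulfate assimilation, gave one of the tightest limits among the responders. In crz1 it read 94.0, 118 and 100.7 CPM at 0 h and 36.9, 39.3 and 51.0 CPM in KCl. The crz1cnb1 libraries gave 96.8, 107 and 107 CPM and then 41.6, 37.6 and 49.0 CPM. The fall was the same size in both strains within the error: the responses were -1.30 and -1.29, and the interaction was -0.02 ± 0.11 (SE; 95% interval -0.26 to 0.23). The data excluded a difference above 1.20-fold for this gene, or above 1.45-fold without the block. MET5, the beta subunit of sulfite reductase, also fell, and its interaction was 0.21 (-0.14 to 0.57). Of the 26 tested genes of sulfate assimilation and methionine synthesis, 26 excluded 2-fold (18 without the block) and 0 had an unadjusted p under 0.05 in edgeR.

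Among the osmotic stress genes, GRE2, a methylglyoxal reductase, rose from 126, 156 and 129 CPM to 355, 316 and 337 CPM in crz1. In crz1cnb1 it rose from 135, 185 and 142 CPM to 386, 294 and 319 CPM. The ranges of the strains overlapped at both times, the interaction was 0.18 ± 0.09 (SE; 95% interval -0.03 to 0.39), and 1.31-fold was the excluded size (1.68-fold without the block). GPP2, the glycerol-3-phosphatase that makes the osmolyte glycerol, rose by 1.75 in crz1 and 1.55 in crz1cnb1 and excluded a difference above 1.37-fold. Of the 19 osmotic stress and glycerol genes tested, 16 excluded a 2-fold difference (8 without the block). STL1, the glycerol symporter, was among the 3 that did not, at -1.04 (-1.70 to -0.37), with 1.42 to 7.10 CPM in the 12 libraries. Its unadjusted p was 0.00587 and its adjusted p 0.849 in edgeR. GRE1 and SIP18 were the others that did not exclude 2-fold, at means of 3.25 and 1.15 CPM. At an unadjusted edgeR p under 0.05, 3 of the 19 had a positive interaction and 2 a negative one. Over all features the shares were 2.85% and 1.52%. Without the block 0 of the 19 were positive and 1 was negative at that level. Of the 19 components of the Hog1 osmosensing pathway, 19 excluded 2-fold and 18 excluded 1.5-fold (16 and 3 without the block).

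Uptake genes gave mixed precision. MMP1, the S-methylmethionine permease, read 129, 103 and 119 CPM at 0 h and 28.8, 40.5 and 34.4 CPM in KCl in crz1, against 134, 98.3 and 118 CPM and then 29.3, 31.6 and 33.0 CPM in crz1cnb1. It fell in both strains to ranges that overlapped, and its interaction of 0.12 excluded a difference above 1.30-fold. HXT4, a hexose transporter, fell by 2.26 in crz1 and by 2.48 in crz1cnb1 (log2), with an excluded size of 1.45-fold. HXT3, the most abundant hexose transporter transcript among those named here, had 1956 to 7209 CPM and an interaction of 0.01 (-0.22 to 0.23), although 14.9% of its 50-base windows occur elsewhere in the genome. Of 14 hexose transporter genes tested, 10 excluded 2-fold (7 without the block). HXT5, HXT7, HXT10 and GAL2 did not, and HXT5 had the largest interaction of the list, at -1.34 (-2.06 to -0.62; edgeR adjusted p = 0.849). Its values were 2.31, 1.79 and 1.80 CPM at 0 h and 4.87, 2.10 and 5.77 CPM in KCl in crz1. In crz1cnb1 they were 2.47, 3.42 and 3.30 CPM and then 19.2, 4.94 and 30.0 CPM. The crz1cnb1 libraries were higher than the crz1 libraries of the same number in all 6 pairs, and KCl replicate 2 was the lowest KCl library in each strain.

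Several iron genes among the responders had wide intervals. FIT3, a cell wall mannoprotein that helps to retain siderophore iron, read 222, 123 and 168 CPM at 0 h and 1274, 519.5 and 2674 CPM in KCl in crz1. Its crz1cnb1 values were 106, 103.5 and 303 CPM and then 773, 1327 and 3345 CPM. The KCl values of the strains overlapped, and the interaction of -0.47 ± 0.64 (SE; 95% interval -1.998 to 1.05) left differences up to 3.995-fold inside the interval. Without control replicate 2 that limit was 11.1-fold. HMX1, the heme oxygenase, had -0.66 (-1.45 to 0.14), and the ferric reductase gene FRE5 had -0.73 (-1.52 to 0.06). Of 24 iron regulon genes, 21 had a negative interaction, with a median of -0.17 against 0.02 over all features, and 0 had an unadjusted p under 0.05 in edgeR. A 2-fold difference was excluded for 17 of the 24 and not for 7 (FIT1, FIT2, FIT3, ARN2, FRE2, FRE5 and HMX1). Without the block it was excluded for 8. The median crz1 minus crz1cnb1 difference of this list moved with replicate number, from 0.35 to -0.14 over the 3 pairs at 0 h and from 0.24 to -0.38 over the 3 pairs in KCl. The median interaction was -0.07 and -0.36 without control replicate 1 and 3, and -0.36, -0.04 and -0.08 without KCl replicate 1, 2 and 3. CCC2, the copper ATPase that loads the iron oxidase, and TIS11, an RNA binding protein of iron limitation, rose in the average response with limits of 1.57-fold and 1.43-fold.

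STE3, the receptor for a-factor and an alpha-cell gene, had the largest fall among the responders. In crz1 it read 9.56, 9.08 and 12.0 CPM at 0 h and 1.16, 0.873 and 1.599 CPM in KCl. In crz1cnb1 it read 4.62, 4.94 and 5.53 CPM and then 0.673, 0.6999 and 0.964 CPM, below crz1 in each pair. Its responses were -3.01 and -2.57, and a difference above 1.91-fold was excluded. The reading frame YKL177W, at a mean of 0.481 CPM, excluded only 6.79-fold. Its position is not in the annotation used here, so whether it shares reads with another gene was not checked. The limit is 99.98% of its average response (log2), and under 10 of the 16 alternatives its interval held a difference as large as that response.

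The genes of the calcineurin pathway itself showed no interaction that passed the test. PMC1, the vacuolar calcium pump and a Crz1 target, read 65.8, 62.7 and 71.7 CPM at 0 h and 91.3, 45.9 and 106 CPM in KCl in crz1. Corresponding crz1cnb1 values were 62.9, 62.8 and 70.8 CPM and then 87.4, 53.7 and 94.0 CPM. KCl replicate 2 was below the 0 h libraries in both strains and the other KCl libraries were above them. The interaction was -0.02 ± 0.12 (SE; 95% interval -0.28 to 0.24; edgeR adjusted p = 0.974), which excluded a difference above 1.21-fold, or above 1.81-fold without the block.

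**Figure D4:**
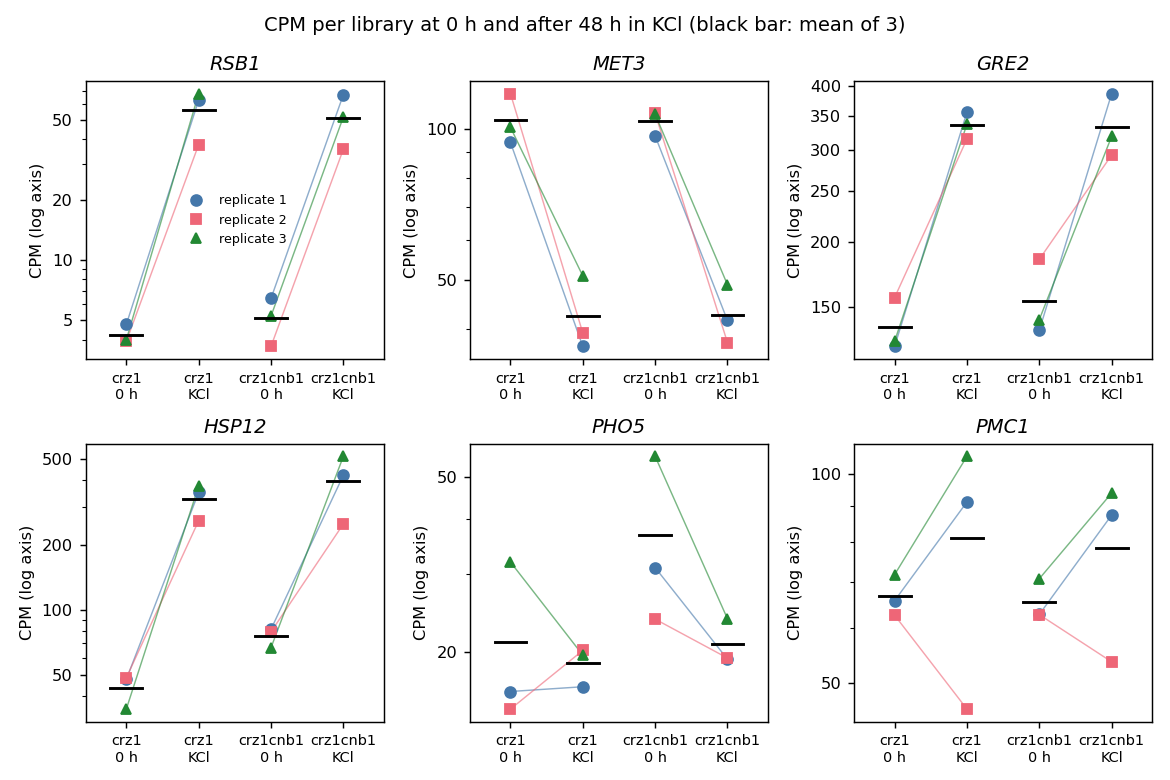
CPM in each library (log y axis) of RSB1, MET3, GRE2, HSP12, PHO5 and PMC1 in the 4 groups, with a black bar for the mean of 3 libraries. Thin lines join libraries of the same strain and number. RSB1, GRE2 and HSP12 rise and MET3 falls in both strains, while PHO5 differs between strains at 0 h more than in KCl, and PMC1 is low in KCl replicate 2 of both strains.

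Without the block, 11 of 13 Crz1 targets, 9 of 11 subunits and regulators and 9 of 11 substrates excluded 2-fold, and 1, 3 and 2 of them excluded 1.5-fold. With it, 12 of the 13 Crz1 targets excluded a 1.5-fold difference, and the median interaction was 0.02, the same as over all features. The sodium pump ENA1 had -0.02 (-0.33 to 0.29), but 88.5% of its 50-base windows recur in the genome, so its counts cannot be told apart from those of its tandem copies. The Golgi calcium pump PMR1 had 0.02 (-0.18 to 0.22), the glucan synthase GSC2 -0.06 (-0.30 to 0.19) and the cell wall transglycosylase CRH1 0.08 (-0.12 to 0.27). PHO89, a sodium-phosphate cotransporter, was the target with the largest interaction, at 0.59 (0.18 to 1.001; unadjusted p = 0.00922 and adjusted p = 0.849 in edgeR). It read 4.62, 3.67 and 4.64 CPM at 0 h and 3.83, 4.97 and 3.30 CPM in KCl in crz1, and 14.1, 9.15 and 17.0 CPM and then 7.82, 9.54 and 7.05 CPM in crz1cnb1. The crz1cnb1 libraries were above the crz1 libraries of both times.

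Of 11 subunits and regulators tested, 10 excluded a 1.5-fold difference. The catalytic subunit genes CNA1 and CMP2 had 0.10 (-0.16 to 0.36) and 0.05 (-0.16 to 0.26), and RCN1, which encodes a calcipressin that binds calcineurin, had 0.07 (-0.37 to 0.50). CMK2, a calmodulin-dependent kinase gene, had 0.09 (-0.15 to 0.32). The remaining gene was the deleted CNB1, whose residual counts in crz1cnb1 leave its interaction without meaning. Of 11 genes for calcineurin substrates outside Crz1, 11 excluded 2-fold and 10 excluded 1.5-fold. HCM1 had -0.07 (-0.34 to 0.21) and SLM2 had 0.09 (-0.14 to 0.33). AKL1, a kinase of endocytosis, had the largest interaction at -0.27 (-0.64 to 0.09). These values are transcript levels of the substrates' genes and say nothing of their phosphorylation.

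**Figure D5:**
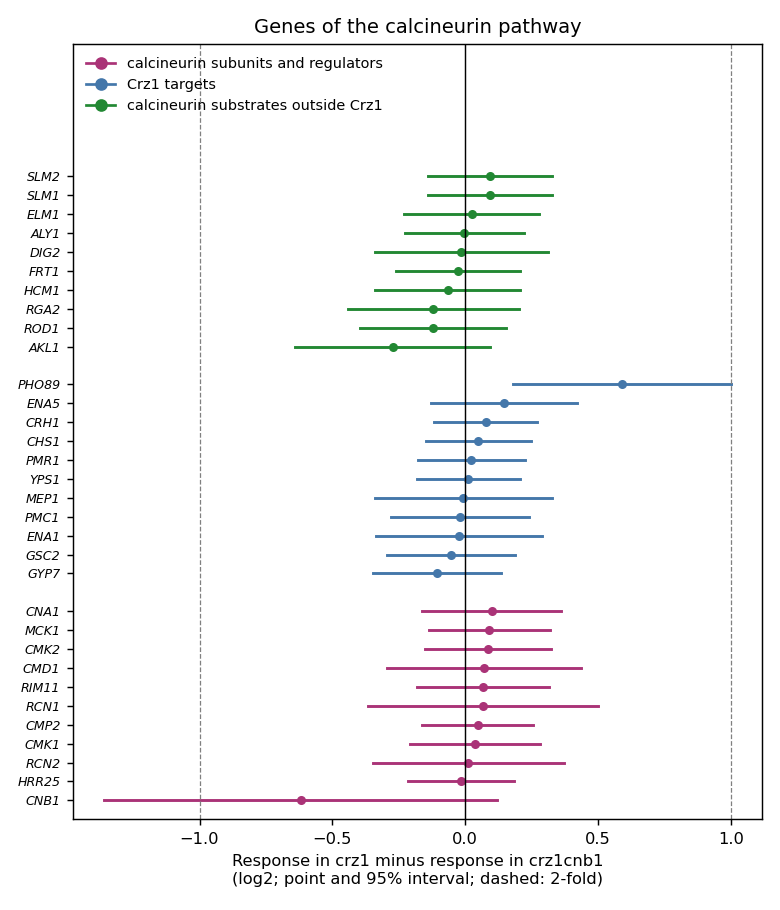
Interaction (response in crz1 minus response in crz1cnb1, log2, x axis) with its 95% interval for genes of calcineurin subunits and regulators, Crz1 targets and substrates outside Crz1; genes on more than 1 list are drawn once. All intervals but those of CNB1 and PHO89 lie inside the dashed lines of a 2-fold difference.

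Routes that calcineurin could reach without Crz1 were read from further lists, in which the counts at 1.5-fold rest on the block (0 to 4 genes per list without it). Of 8 genes formed by HCM1 and its cell cycle targets, 8 excluded 2-fold (5 without the block) and 5 excluded 1.5-fold. The interaction was negative for 6 of the 8, with a median of -0.11. An unadjusted edgeR p under 0.05 was reached by 1 of them (0 without the block), against 4.38% of all features. That gene was the kinesin gene CIN8, at -0.30 (-0.60 to -0.01, edgeR adjusted p = 0.849). WHI5, an inhibitor of G1 cyclin transcription, had the largest interaction, at -0.35 (-0.93 to 0.22). Of 13 G1/S genes, 13 excluded 1.5-fold, with CLN2, a G1 cyclin, at -0.07 (-0.27 to 0.13). Of 24 TORC2 and sphingolipid genes, 24 excluded 2-fold (16 without the block) and 22 excluded 1.5-fold. AUR1, the inositol phosphorylceramide synthase, had 0.15 (-0.04 to 0.33). Of 22 cell wall integrity genes, 22 excluded 1.5-fold. Among 10 calcium pumps and channels, 10 excluded 1.5-fold. A positive interaction at an unadjusted edgeR p under 0.05 was seen for 2 of the 10, against 2.85% of all features, and for 0 without the block. One of the 2 was the vacuolar calcium exchanger VCX1, at 0.24 (0.02 to 0.47, edgeR adjusted p = 0.849). In the potassium and sodium transport list, 18 of 18 excluded 2-fold (11 without the block). HAL5, a kinase that supports potassium uptake, had -0.41 (-0.77 to -0.05, edgeR adjusted p = 0.849). Of 12 genes of glutathione synthesis and recycling, 12 excluded 1.5-fold. GSH2, the glutathione synthase, had 0.13 (-0.05 to 0.32), and DUG1, a dipeptidase of glutathione breakdown, had the largest interaction of the list, at 0.30 (0.06 to 0.54; edgeR adjusted p = 0.849).

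PHO5 and HSP12 had small p-values within the phosphate and stress lists, and their upstream sequences are shown because their regulators are well known. SLM6 and PNC1 also had a p below that of HSP12, and HXT5 followed closely. PHO5 encodes a secreted acid phosphatase that Pho4 activates when phosphate is short. HSP12 encodes a small membrane-associated stress protein that Msn2 and Msn4 activate. The stretches run from 300 to 151 bases upstream of the annotated start codon (R64, 5' to 3' on the gene's strand). Capitals mark CACGTG in PHO5 (chrII:431102-431251, minus strand) and AGGGG on either strand in HSP12 (chrVI:106956-107105, plus strand).
PHO5: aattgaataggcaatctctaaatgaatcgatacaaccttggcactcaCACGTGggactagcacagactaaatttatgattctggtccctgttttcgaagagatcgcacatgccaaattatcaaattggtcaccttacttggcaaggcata
HSP12: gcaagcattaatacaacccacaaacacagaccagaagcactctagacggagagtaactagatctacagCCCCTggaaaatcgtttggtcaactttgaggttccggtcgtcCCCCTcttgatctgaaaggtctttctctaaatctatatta
CACGTG, a core letter string bound by Pho4, occurred 1 time here and in 2.52% of the same windows of 6020 genes. AGGGG, the stress response element, occurred 2 times here and on either strand in 12.4% of those windows. A match describes the letters and is not shown to be a used site.

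PHO5 read 16.2, 14.8 and 32.0 CPM at 0 h and 16.6, 20.1 and 19.6 CPM in KCl in crz1. In crz1cnb1 it read 31.1, 23.7 and 55.7 CPM and then 19.2, 19.3 and 23.8 CPM. At each replicate number crz1 was below crz1cnb1 at 0 h, by 0.93, 0.68 and 0.80 (log2), whereas in KCl the same differences (crz1 minus crz1cnb1) were -0.21, 0.06 and -0.27. The pair differences at 0 h and in KCl did not overlap, which held for 704 of all features (11.2%). The interaction was 0.67 ± 0.13 (SE; 95% interval 0.37 to 0.96; edgeR unadjusted p = 5.73e-04 and adjusted p = 0.723), and over the alternatives it ranged from 0.53 to 0.74 with adjusted p from 0.336 to 1. Of the gene's 50-base windows, 12.3% recur in the genome. Of 21 phosphate regulon genes, 5 had a positive interaction at an unadjusted p under 0.05 (PHO5, PHO89, PHO8, PHM8 and VTC1) and 0 a negative one, against 2.85% and 1.52% of all features. Without the block 0 of the 21 had an unadjusted p under 0.05. The list also held genes with the other sign: SPL2, an inhibitor of low-affinity phosphate uptake, had -0.64 (-1.41 to 0.14).

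HSP12 read 47.6, 48.3 and 34.6 CPM at 0 h and 352, 259.6 and 376 CPM in KCl in crz1. In crz1cnb1 it read 81.3, 79.1 and 66.8 CPM and then 422, 251 and 517 CPM. The strains did not overlap at 0 h, where crz1cnb1 was higher, and overlapped in KCl. The gene rose in the average response, by 2.92 in crz1 and 2.33 in crz1cnb1. Its interaction was 0.58 ± 0.13 (SE; 95% interval 0.29 to 0.88; edgeR unadjusted p = 0.00133 and adjusted p = 0.849), with an excluded size of 1.84-fold, or 2.48-fold without the block. Of 26 general stress genes, 5 had a positive interaction at an unadjusted edgeR p under 0.05 (HSP12, PNC1, TFS1, GSY2 and GLK1) and 0 a negative one. Over all features the shares were 2.85% and 1.52%. PNC1, the nicotinamidase of NAD salvage, had 0.44 (0.23 to 0.66; edgeR adjusted p = 0.849). The chaperone HSP104 had -0.06 (-0.29 to 0.16) and the trehalose synthase gene TPS1 had 0.12 (-0.07 to 0.31), with limits of 2.98-fold and 2.45-fold without the block. Of the stress list 25 of 26 excluded 2-fold, but 5 did so without the block, where 0 of the 26 had an unadjusted p under 0.05. Averaged over both treatments, 105 of 6309 features differed between the strains by edgeR with adjustment (1.66%), and HSP12 and PHO5 were among those lower in crz1, at -0.52 and -0.47 (log2, crz1 minus crz1cnb1). RTC3, a stress-induced protein of RNA metabolism, stood between 8.57 and 14.8 CPM at 0 h and between 29.4 and 125 CPM in KCl in crz1. The ranges were 6.48 to 13.3 CPM and 22.7 to 89.2 CPM in crz1cnb1, and the gene rose in the average response. Its lowest KCl value was replicate 2 in both strains, and its interaction of -0.05 excluded 1.31-fold, or 3.18-fold without the block.

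The other features with the smallest p were short or little characterised. YNR034W-A, a small reading frame, read 3.85, 3.33 and 2.73 CPM at 0 h and 17.6, 6.63 and 22.9 CPM in KCl in crz1. The crz1cnb1 libraries read 3.71, 2.96 and 2.12 CPM and then 8.28, 2.71 and 10.9 CPM. The crz1 libraries were above the crz1cnb1 libraries of the same number in all 6 pairs, by less at 0 h than in KCl. Its interaction of 0.96 (0.56 to 1.35; edgeR unadjusted p = 2.81e-04 and adjusted p = 0.723) had the smallest p of all features, and it ranged from 0.85 to 1.01 over the alternatives. SLM6 had -1.03 (-1.46 to -0.59) and overlaps REI1, so its reads are uncertain. YDL152W, YKR075W-A and YPL182C had -0.86, -1.02 and -1.11 at 0.824 to 12.3 CPM. Their positions are not in the annotation used here. Without the block the unadjusted p of these 5 and of PHO5 ran from 0.0335 (YPL182C) to 0.192 (YNR034W-A) in edgeR, each with an adjusted p of 1.

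In the respiratory chain and TCA cycle, 31 of 32 genes had an interaction above 0, against 53.5% of all features. The largest was that of CYC7, at 0.58 with a mean of 2.28 CPM. Their median was 0.19, and 29 excluded 2-fold (15 without the block). In edgeR 0 were called and 3 had an unadjusted p under 0.05 (0 without the block), against 4.38% of all features. The median crz1 minus crz1cnb1 difference of this list was -0.24, -0.22 and -0.03 in the 3 pairs at 0 h and -0.26, 0.23 and 0.15 in KCl, so the first KCl pair stood with the 0 h pairs. Without KCl replicate 1 the median interaction was 0.33, and without KCl replicate 2 it was 0.11. Of 138 ribosomal protein genes, 120 had an interaction above 0, the median was 0.10, 3 had an unadjusted p under 0.05 and 0 were called in edgeR, and 138 excluded 2-fold. Without control replicate 1 and 2 that median was 0.15 and 0.0043, and with scaling by library totals it was 0.02. The number of these genes excluding 2-fold without the block was not computed, and the limit of RPL39 was then 2.23-fold. Of 31 proteasome genes and 20 of glycolysis and fermentation, 31 and 20 excluded 1.5-fold (2 and 0 without the block). Of 26 pheromone and a-cell genes, 23 excluded 2-fold (15 without the block). FIG1, a membrane protein of mating, and PRM3, a nuclear fusion protein, were among the others, at 0.80 (-0.17 to 1.78) and 0.87 (-0.37 to 2.11), with means of 5.48 and 0.673 CPM.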

How the data were processed

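Poly(A) RNA was sequenced in 12 libraries. The counts per gene deposited by the authors (7126 features, 21305485 to 21599279 per library) were used as such, and the TPM values deposited by the authors only as an alternative. The submitters' processing notes name featureCounts, DESeq2 and the genome build R64, with no version or role. Which aligner and strand setting were used, and how multiply mapped reads were counted, is not given in the sources used here. Overlapping genes and near-identical copies are therefore uncertain. Positions came from a RefSeq annotation of R64, in which 6048 identifiers matched.

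edgeR 4.0.16 (R 4.3.3) with TMM scaling (factors 0.791 to 1.17) and filterByExpr (count minimum 10) left 6309 features, 4976 of them with a standard name. The robust quasi-likelihood fit held 6 blocks (treatment by replicate number), the strain and the strain by treatment term, with Benjamini-Hochberg adjustment at 0.05. Intervals (95%) used the Fisher information, the moderated quasi-dispersion and the t distribution of its degrees of freedom (median 10.11). A limit of exclusion is the larger end of the interval in size. Responses per strain are differences of mean log2 CPM (prior count 2), so their difference can depart slightly from the fitted interaction. The scripts were tested on simulated data.

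Numbers pair the libraries within a treatment: deviations from the group means of same-numbered libraries of both strains correlated at 0.543 to 0.827 (6 pairs), against -0.732 to 0.317 for different numbers (36 pairs). Same-numbered libraries across treatments correlated at 0.309 to 0.582. The median SD was 0.29 within groups and 0.16 for pair differences (log2).

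Named genes were the 6 with the smallest p, up to 10 risers and 8 fallers of the average response, per list the members with the largest interaction, the narrowest interval and the largest response, all genes of the 3 calcineurin lists, and the deleted genes. SIP18, GRE1, FIT1, FIT2, ARN2, FRE2, PHO8, VTC1, PNC1, TFS1, GSY2, GLK1, CCC2, TIS11, CIN8, HXT7, HXT10, GAL2 and YKL177W were added after their values were seen. GPP2 was also named outside the rules above. For the averaged strain difference, so were PHO84, PHO11, VTC4, HXT2, ADR1, PRM6, FUS2 and RDN5-1. The members, lists and comparisons were chosen with earlier results of these data known. Alternatives were other blocks, scalings, filters, tools (limma 3.58.1, DESeq2 1.42.0), TPM with pseudocounts 1 and 0.1, and leaving out each replicate number.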

Additional observations from a re-analysis of the deposited data

How the results depend on the processing

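The interaction had 0 called features under all 16 alternatives run, with 18 (no replicate block) to 416 (without control replicate 3) at an unadjusted p under 0.05. The number of features excluding 2-fold was 4357 with no replicate block, and 5344 to 6026 under the other 15 alternatives, 5516 to 5613 where a replicate number was left out, and 5373 with 99% intervals. The number excluding 1.5-fold was 725 with no replicate block, 2977 with the replicate block nested in strain and 4012 to 4870 when a replicate number was left out, against 4671. The average KCl response had 171 called features with a replicate block, 9 with library totals and 133 in DESeq2, against 33, and 10 to 180 when a replicate number was left out. Responders excluding a difference of the size of their response numbered 29 to 33. The strain difference averaged over both treatments, added after the data were seen, had 7 called features with no replicate block, 17 with the replicate block over all 4 groups and 31 to 147 when a replicate number was left out, against 105. For single named genes, 320 of 320 recomputed interactions kept their direction and call, and of 1936 recomputed limits 124 no longer excluded 2-fold and 7 newly did. The causes were not tested. Of the features under 1 CPM, 4.93% excluded 2-fold.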

Other observations

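The strain difference was also averaged over both treatments. Within the same blocks, 105 of 6309 features (1.66%) differed between crz1 and crz1cnb1 by edgeR with adjustment, 43 higher and 62 lower in crz1, and 15 of them by at least 2-fold. These counts include CNB1 itself, which is deleted in crz1cnb1, at 6.325 (log2). They also include RDN5-1, at 2.43 with a mean of 2.855 CPM. The direction was the same in all 6 pairs of libraries for 100 of the 105, and the interval of the interaction excluded a 2-fold difference in response for 87, while 14 had an interaction at an unadjusted p under 0.05. The comparison was added after the data were seen. It rests on the block: 7 features were called without it and 17 with 1 block per number over all 4 groups. Leaving out a replicate number gave 48, 147 and 58 (control 1, 2 and 3) and 42, 70 and 31 (KCl 1, 2 and 3).

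Of 21 phosphate genes, 8 were lower in crz1 and 0 higher, against 62 and 43 of all 6309 features. Of the 8, PHO11 was called under 3 of 15 alternatives and VTC4 under 6, the others under 10 to 15. PHO84, the high-affinity phosphate transporter, read 240.5, 179 and 352 CPM at 0 h and 126, 169 and 80.6 CPM in KCl in crz1. In crz1cnb1 it read 605, 448 and 929 CPM and then 351, 397 and 367 CPM, above crz1 in every pair. Its difference was -1.49 (log2; edgeR adjusted p = 6.53e-05), while its interaction was -0.27 (-0.71 to 0.17). PHO89 differed by -1.31, SPL2 by -1.86 and the acid phosphatase gene PHO12 by -0.90, though 87.2% of the 50-base windows of PHO12 recur elsewhere. Hexose transporter genes were lower in crz1 in 4 of 14 cases, with HXT7 at -1.49, and cell wall genes in 5 of 22, with CWP1 at -0.55. HXT2 was called under 6 of 15 alternatives, the other hexose and cell wall genes under 10 to 13. The regulator of glucose-repressed genes ADR1 differed by -0.65. Of 26 pheromone and a-cell genes, 3 were higher in crz1: PRM6 at 1.45, FIG1 at 1.29 and FUS2 at 0.51, called under 14, 8 and 5 of 15 alternatives.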
